A study of Mus musculus with 23 samples.

Results

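The genes of cholesterol synthesis and sterol transport were followed in 3 tissues of mice given the platinum drug oxaliplatin, which binds DNA and is used against colorectal cancer. The set held 29 genes, chosen by gene symbol. It comprised 18 enzymes of the route from acetyl-CoA to cholesterol, 4 genes of the SREBP2 system (the gene of this transcription factor, Srebf2, and 3 of its regulators, Scap, Insig1 and Insig2), and 7 genes of efflux and transport, the last including both liver X receptors (LXR). All 29 were found in each of the 3 count tables, which together held 29894 genes, and all 29 passed the filter on low counts in each tissue. RNA was sequenced from tibialis anterior (a fast muscle of the lower leg), subcutaneous white fat and hypothalamus of C57BL/6 mice, an inbred strain, after 8 weeks of oxaliplatin at 10 mg/kg or of vehicle. Muscle had 5 oxaliplatin and 4 vehicle libraries, and fat and hypothalamus had 4 oxaliplatin and 3 vehicle libraries each. The age and sex of the mice, the dosing interval and the composition of the vehicle are not given in the sources used here. The study asked how oxaliplatin alters gene expression in these tissues in connection with wasting of muscle and fat.

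Cells build cholesterol from acetyl-CoA by way of mevalonate, squalene and lanosterol. When sterol in the endoplasmic reticulum runs low, the escort protein Scap carries SREBP2, encoded by Srebf2, to the Golgi, where it is cut and freed to switch on the enzymes of the route. When sterol is plentiful, the Insig proteins hold Scap back. Oxidised sterols then activate the LXR receptors, encoded by Nr1h2 and Nr1h3, which raise the efflux pumps Abca1 and Abcg1, so the synthesis and efflux sides commonly run in opposite directions. The brain makes nearly all of its own cholesterol, while fat tissue stores much of the body's free cholesterol in its lipid droplets.

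The proximal promoters of the genes that the results turn on are shown because SREBP2 acts through short sequences there, usually beside a CCAAT box bound by the factor NF-Y. Promoter windows from 250 bases before to 50 bases after the RefSeq start (GRCm38.p6) were matched for 23 of the 29 genes. The 6 genes with no entry were Fdps, Fdft1, Sqle, Stard4, Abcg1 and Gramd1b. Capitals mark the SREBP site TCACNCCAC and the CCAAT box, which reads ATTGG on the opposite strand. The window of Hmgcs1, the synthase that makes the precursor of mevalonate, is chr13:119690101-119690400 on the plus strand. That of Sc5d, a late sterol desaturase, is chr9:42264251-42264550 on the minus strand, and that of Nsdhl, a sterol dehydrogenase of the demethylation steps, is chrX:72918271-72918570 on the plus strand. The window of Insig1, which retains Scap, is chr5:28071162-28071461 on the plus strand. The window of the efflux pump Abca1, at chr4:53159846-53160145 on the minus strand, is given for contrast.
Hmgcs1: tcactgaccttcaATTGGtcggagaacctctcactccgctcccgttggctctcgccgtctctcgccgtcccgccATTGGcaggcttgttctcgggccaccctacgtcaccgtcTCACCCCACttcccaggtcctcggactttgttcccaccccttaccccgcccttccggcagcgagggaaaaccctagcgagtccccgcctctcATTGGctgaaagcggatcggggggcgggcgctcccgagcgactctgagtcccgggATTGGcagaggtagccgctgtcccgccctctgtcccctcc
Sc5d: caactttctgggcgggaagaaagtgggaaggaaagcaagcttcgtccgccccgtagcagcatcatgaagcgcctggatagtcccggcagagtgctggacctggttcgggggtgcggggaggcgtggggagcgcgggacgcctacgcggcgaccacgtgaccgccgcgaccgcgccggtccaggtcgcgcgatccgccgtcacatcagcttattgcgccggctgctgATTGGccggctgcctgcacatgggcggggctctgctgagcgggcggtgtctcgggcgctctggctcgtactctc
Nsdhl: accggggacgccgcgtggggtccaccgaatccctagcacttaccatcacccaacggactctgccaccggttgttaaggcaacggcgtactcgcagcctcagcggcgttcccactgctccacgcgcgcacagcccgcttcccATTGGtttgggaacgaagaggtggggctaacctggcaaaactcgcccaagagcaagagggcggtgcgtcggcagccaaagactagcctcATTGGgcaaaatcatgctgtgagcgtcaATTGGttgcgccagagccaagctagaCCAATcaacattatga
Insig1: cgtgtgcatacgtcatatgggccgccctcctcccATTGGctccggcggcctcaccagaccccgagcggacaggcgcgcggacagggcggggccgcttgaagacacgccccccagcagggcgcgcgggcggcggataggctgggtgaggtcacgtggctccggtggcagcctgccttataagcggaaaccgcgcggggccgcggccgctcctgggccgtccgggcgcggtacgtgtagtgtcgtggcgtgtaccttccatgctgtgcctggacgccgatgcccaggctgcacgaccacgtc
Abca1: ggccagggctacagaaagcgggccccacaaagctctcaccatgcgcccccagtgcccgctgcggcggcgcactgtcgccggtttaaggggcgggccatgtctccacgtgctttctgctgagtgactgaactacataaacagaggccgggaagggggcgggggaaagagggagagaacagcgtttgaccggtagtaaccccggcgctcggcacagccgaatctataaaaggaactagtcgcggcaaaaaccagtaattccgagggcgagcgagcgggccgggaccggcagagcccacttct
The window of Hmgcs1 held 1 exact SREBP site, at position -137 from the start, and 4 CCAAT boxes. The windows of Nsdhl, Sc5d and Insig1 held 4, 1 and 1 CCAAT boxes and no exact SREBP site, and that of Abca1 held neither motif.

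A CCAAT box on either strand was present for 14 of the 15 synthesis enzymes with a window (93.3%), against 41.1% of the 27025 genes in the promoter table. It was present for 3 of 4 genes of the SREBP2 system and for 1 of 4 efflux and transport genes, Gramd1a. The exact SREBP site was found in Hmgcs1 alone among the 23 genes, against 1.44% of all genes. The exact LXR direct repeat (AGGTCA, 4 bases, AGGTCA) was found in none of the 23, against 4 of the 27025 genes (0.0148%). So rare a match could hardly be met among 23 genes, and looser forms were not searched. Its absence therefore does not show that these genes, Abca1 among them, lack an LXR site. A gene with several starts was counted once if any of its windows held the motif. These counts describe letters in a short window and no binding was measured.

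Library totals were 22427670 to 32151271 counts in muscle, 16458523 to 22748362 in fat and 23553612 to 28529269 in hypothalamus. The lowest count of any member in any library was 16, for Sqle in muscle, so counting error is small for most members and the spread between mice sets the precision. Values are given as CPM, counts scaled to the normalised library size, with no correction for gene length, and are compared between groups and never between genes. Markers of the labelled tissue were present throughout: 6 of 6 myofibre markers in muscle summed to 124658 to 171340.0 CPM in oxaliplatin and 125195 to 170851 CPM in vehicle libraries, and 6 of 6 neuron markers in hypothalamus to 1985 to 2739 and 2351 to 2563 CPM. The 6 adipocyte markers in fat summed to 3545 to 9047 CPM in oxaliplatin and 8953 to 12448 CPM in vehicle libraries. The fat library of vehicle mouse 4 stood apart, with 121263 CPM of myofibre markers against 13.2 to 2999.8 CPM in the other fat libraries. The muscle library titled as oxaliplatin mouse 5 carries a vehicle entry in its treatment label, and it was placed by its title. Whether the same mouse number in different tissues is the same animal is not stated. The strand setting of the counting is not given, so counts of genes with exons of another gene on the other strand are uncertain: 18.3% of the exonic bases of Fdft1 lie opposite Ctsb, 12.1% of those of Hmgcs1 opposite Gm48342 and 13.2% of those of Scap opposite 5830462I19Rik. Smaller shares on the other strand were 9.22% for Idi1, 8.07% for Gramd1a, 3.76% for Cyp51, 3.53% for Lss and 1.97% for Gramd1b. Fdps shares 26.7% of its exonic bases with Gm43738 on its own strand, Tm7sf2 12.1% with Vps51 and Nr1h3 1.35% with Gm13783.

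In muscle, 1 of the 29 sterol genes passed the test, with the enzyme Acat2 lower in every oxaliplatin mouse than in every vehicle mouse. The tests were edgeR quasi-likelihood tests on all 14737 tested genes with Benjamini-Hochberg adjustment at 0.05, which called 0.163% of all genes, 0.0475% as lower. None of the efflux and transport genes passed, but all 7 had a fitted log2 change above 0, as had 47.8% of all genes. Of the synthesis enzymes 15 of 18 had a change below 0, as had 52.2% of all genes. An unadjusted p under 0.05 was found for 4 of the 29, against 9.59% of all genes: Acat2 and Msmo1 lay lower (4.79% of all genes) and Gramd1b and Nr1h3 higher (4.8% of all genes). The arms did not overlap for 3 of the 29, against 3.89% of all genes, with Acat2 lower (1.7%) and Gramd1b and Nr1h3 higher (2.18%) in oxaliplatin mice.

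Acat2 is the cytosolic thiolase that joins acetyl-CoA units at the head of the route (chr17:12942890-12960747, minus strand, GRCm38). Its level was 7.51, 9.56, 7.60, 9.13 and 10.2 CPM in oxaliplatin mice 1 to 5, against 14.6, 13.5, 14.95 and 14.9 CPM in vehicle mice 1 to 4. The arms did not overlap, and the level of the oxaliplatin mice was 0.606 times that of the vehicle mice, at 8.79 ± 1.19 CPM in oxaliplatin mice and 14.5 ± 0.676 CPM in vehicle mice (SD, n = 5 and 4). Acat2 fell, with a log2 fold change of -0.72 ± 0.12 (SE) and an adjusted p of 0.0486 in edgeR. The call stood close to the threshold: leaving out any 1 library gave adjusted p values of 0.0647 to 0.182 in edgeR, and DESeq2, which called 1.2% of all genes, gave 0.000101. Its near-identical neighbour Acat3, which can share reads with it, averaged 0.870 ± 0.283 CPM in oxaliplatin mice and 1.06 ± 0.203 CPM in vehicle mice.

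The other enzymes of the mevalonate and isoprenoid steps, Hmgcs1, Mvk, Pmvk, Mvd, Idi1 and Fdps, had log2 fold changes between -0.36 for Mvd, the decarboxylase that ends the mevalonate steps, and -0.03 for Idi1, the isomerase that follows it, and none passed. Of the later enzymes, Msmo1, which oxidises the methyl groups of lanosterol, had the smallest p. Its level was 3.08, 5.24, 4.10, 4.55 and 3.53 CPM in oxaliplatin mice, against 5.09, 5.38, 5.35 and 6.02 CPM in vehicle mice. Only oxaliplatin mouse 2 reached the vehicle range, and the log2 fold change was -0.42 ± 0.17 with an edgeR adjusted p of 0.452. Cyp51, the lanosterol demethylase, had 1.94, 4.76, 3.10, 3.35 and 3.56 CPM in oxaliplatin mice, against 4.88, 4.60, 3.77 and 4.58 CPM in vehicle mice. Its ranges overlapped through oxaliplatin mouse 2, and its log2 fold change was -0.42 ± 0.22 (edgeR adjusted p = 0.615). Sqle, the epoxidase that is a control point of the route, had 1.31, 2.18, 1.0, 0.789 and 1.49 CPM in oxaliplatin mice, against 0.656, 0.692, 2.27 and 1.89 CPM in vehicle mice. Its values were low and scattered in both arms, at a log2 fold change of -0.04 ± 0.41. Over the 18 enzymes the median log2 fold change was -0.09, against -0.01 over all tested genes.

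The genes of the SREBP2 system in muscle did not separate by arm. Srebf2 had 5.91, 9.37, 7.65, 6.92 and 6.39 CPM in oxaliplatin mice, against 6.605, 7.09, 8.70 and 7.83 CPM in vehicle mice, and Insig1 had 14.9, 16.2, 12.0, 15 and 9.77 CPM in oxaliplatin mice, against 13.7, 14.2, 13 and 9.61 CPM in vehicle mice. Their log2 fold changes were -0.06 ± 0.16 and 0.10 ± 0.17, and those of Scap and of Insig2, the second retention protein, were -0.11 ± 0.16 and 0.04 ± 0.12. None of the 4 had an adjusted p under 0.9 in edgeR.

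On the efflux and transport side of muscle the median log2 fold change was 0.41, against -0.01 over all tested genes. Gramd1b carries cholesterol from the plasma membrane to the endoplasmic reticulum (chr9:40293233-40531383, minus strand). It had 7.78, 2.98, 3.00, 4.55 and 13.6 CPM in oxaliplatin mice, against 1.72, 2.61, 1.96 and 2.54 CPM in vehicle mice. Every oxaliplatin mouse exceeded every vehicle mouse, with mice 1 and 5 far above the other oxaliplatin mice, and the oxaliplatin mean was 2.89 times the vehicle mean. The log2 fold change was 1.54 ± 0.44 and did not pass in edgeR (adjusted p = 0.246), while DESeq2 gave an adjusted p of 0.018. Nr1h3, the LXR receptor named alpha, had 28.3, 21.0, 23.5, 23.2 and 19.9 CPM in oxaliplatin mice, against 17.2, 18.7, 14.1 and 11.8 CPM in vehicle mice. Its arms did not overlap either, at a log2 fold change of 0.59 ± 0.15 (edgeR adjusted p = 0.192).

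The efflux pump Abca1, which loads cholesterol onto apolipoprotein, had 16.1, 6.15, 7.10, 8.46 and 19.5 CPM in oxaliplatin mice, against 5.46, 4.76, 7.02 and 12.0 CPM in vehicle mice. Abcg1, which passes cholesterol to mature lipoprotein particles, had 15.2, 6.43, 8.70, 12.8 and 12.8 CPM in oxaliplatin mice, against 8.45, 6.64, 7.02 and 11.5 CPM in vehicle mice. Both overlapped between the arms, with oxaliplatin mice 1 and 5 among the highest for each, and their log2 fold changes were 0.64 ± 0.40 and 0.41 ± 0.25. The changes of Gramd1a, a relative of Gramd1b, of the soluble sterol carrier Stard4 and of Nr1h2, the LXR receptor named beta, lay between 0.06 and 0.27, and all overlapped. With muscle mouse 5 counted as vehicle, as its treatment entry has it, no gene was called at the adjusted threshold in edgeR and 701 had an unadjusted p under 0.05. The median of the efflux and transport genes was then 0.05, with 5 of 7 above 0 (47.7% of all genes), and Acat2 had a log2 fold change of -0.69 with an adjusted p of 0.592. In bulk tissue, fewer cells of a type and less RNA per cell cannot be told apart. The 6 endothelial markers summed to 159 to 181 CPM in oxaliplatin and 106 to 146 CPM in vehicle muscle, with 1 of 6 called (0.163% of all genes), and the 6 fibroblast markers to 369.8 to 741 and 481 to 1557 CPM, with none called. Their part in the muscle values was not tested.

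**Figure D1:**
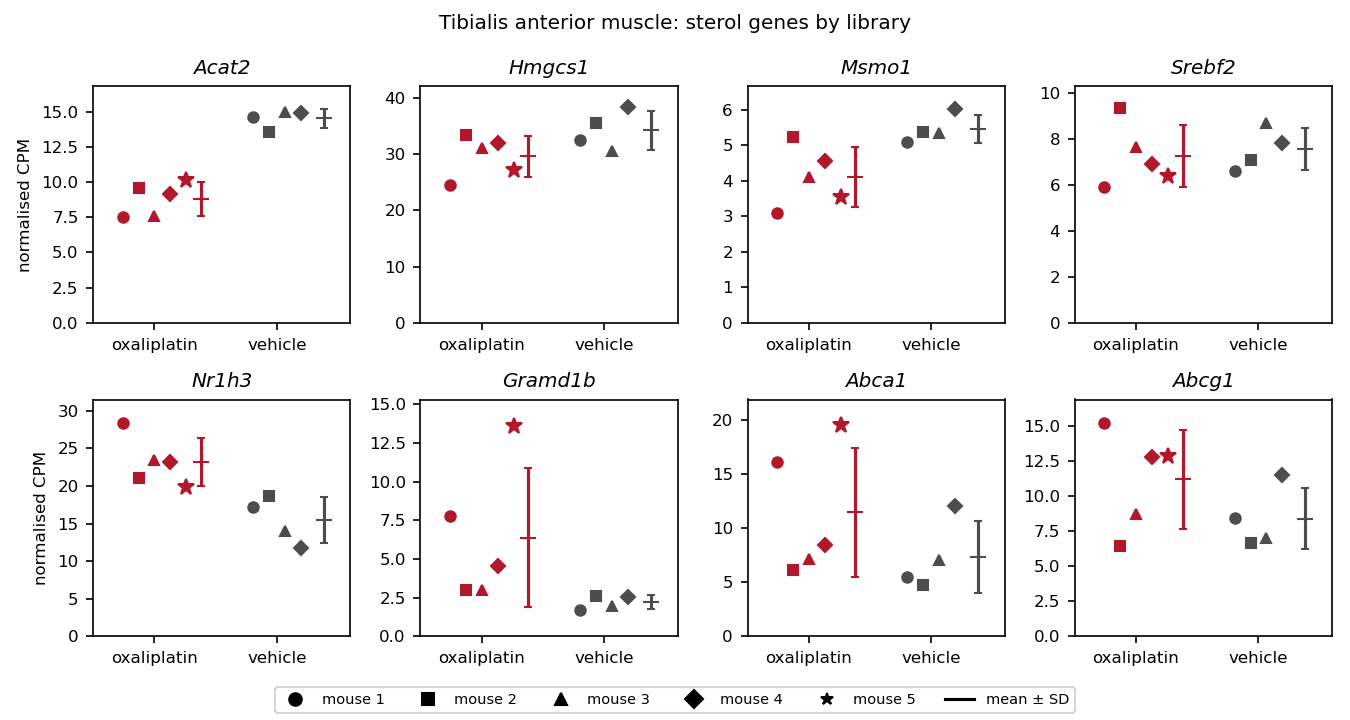
Normalised CPM (vertical axis, from 0) of 8 sterol genes in each muscle library, oxaliplatin left and vehicle right, 1 symbol per mouse number, with bars for the mean ± SD. The oxaliplatin mice lie below the vehicle mice for Acat2 (7.51 to 10.2 against 13.5 to 14.95 CPM) and above them for Nr1h3 and Gramd1b, while the other panels overlap.

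In fat, no sterol gene passed the adjusted threshold with all libraries, and neither did any of the 19870 genes tested by edgeR (0% called). Many genes nevertheless had a small unadjusted p: 26.1% of all tested genes had one under 0.05, as had 16 of the 29 sterol genes, 11 of them lower (12.7% of all genes) and 5 higher (13.4%) in oxaliplatin mice. DESeq2 called 2377 genes (9.03% of those it tested) and 14 of the 29, and limma-voom called none. The arms did not overlap for 14 of the 29, against 21.5% of all tested genes, 11 of them lower (11.2%) and 3 higher (10.3%) in oxaliplatin mice. Of the 18 enzymes 13 had a fitted change below 0, as had 47.6% of all tested genes, and 8 lay below all vehicle mice.

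The late enzymes held the largest differences. Sc5d (chr9:42251595-42264256, minus strand) had 23.1, 21.8, 27.2 and 67.7 CPM in oxaliplatin mice 2 to 5, against 123, 139 and 122 CPM in vehicle mice 1, 2 and 4. All 4 oxaliplatin mice lay below all vehicle mice, and mouse 5 stood between the other oxaliplatin mice and the vehicle mice. The means were 34.9 ± 21.9 CPM in oxaliplatin mice and 128 ± 9.33 CPM in vehicle mice (SD, n = 4 and 3). The log2 fold change was -1.87 ± 0.41, with an edgeR adjusted p of 0.114.

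Nsdhl (chrX:72918557-72958514, plus strand) had 6.27, 6.42, 8.99 and 12.2 CPM in oxaliplatin mice, against 27.4, 19.5 and 19.9 CPM in vehicle mice. Hsd17b7, the reductase that works with it on the sterol ring, had 5.73, 6.20, 4.57 and 5.82 CPM in oxaliplatin mice, against 11.5, 9.88 and 12.8 CPM in vehicle mice. In both the arms were apart, and for Hsd17b7 mouse 5 lay with the other oxaliplatin mice. The log2 fold changes were -1.39 ± 0.27 and -1.03 ± 0.17, with edgeR adjusted p values of 0.0928 and 0.0849. Msmo1 was apart in the same direction at -0.57 ± 0.17, and Dhcr7, the reductase of the last step, at -0.67 ± 0.32.

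Among the mevalonate and isoprenoid enzymes, Fdps, which makes farnesyl diphosphate, had 8.06, 8.56, 9.71 and 10.99 CPM in oxaliplatin mice, against 24.0, 16.7 and 15.4 CPM in vehicle mice. The arms were apart, and the log2 fold change was -0.999 ± 0.20 (edgeR adjusted p = 0.0992). Hmgcs1 had 59.2, 45.0, 44.7 and 97.0 CPM in oxaliplatin mice, against 120.2, 132 and 153 CPM in vehicle mice, at a log2 fold change of -1.13 ± 0.28. Mouse 5 was again nearest to the vehicle mice. Idi1 was apart in the same direction at -0.94 ± 0.23, and Mvk, the mevalonate kinase, overlapped through mouse 5 alone at -0.61 ± 0.23. Sqle had 15.8, 11.1, 10.4 and 10.2 CPM in oxaliplatin mice, against 14.0, 16.6 and 11.5 CPM in vehicle mice, with overlapping arms and a log2 fold change of -0.23 ± 0.21.

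Of the last enzymes below 0, Mvd was at -0.59 ± 0.32, the lanosterol synthase Lss at -0.06 ± 0.22 and the sterol reductase Tm7sf2 at -0.06 ± 0.22. The 5 other enzymes had changes above 0. Cyp51 had 130.1, 91.2, 51.4 and 15.99 CPM in oxaliplatin mice, against 15.95, 19.8 and 17.8 CPM in vehicle mice. Oxaliplatin mice 2 to 4 lay well above the vehicle range and mouse 5 lay at its lower edge, so the log2 fold change of 2.01 ± 0.63 had an edgeR adjusted p of 0.131. Acat2 had 295, 107, 63.4 and 46.6 CPM in oxaliplatin mice, against 72.9, 48.2 and 47.2 CPM in vehicle mice, at a log2 fold change of 1.19 ± 0.64. Acat3, which can share reads with Acat2, averaged 27.5 ± 28.96 CPM in oxaliplatin mice and 2.85 ± 0.873 CPM in vehicle mice. Fdft1, the squalene synthase whose exons partly face Ctsb, had a log2 fold change of 0.65 ± 0.43, and Ctsb one of -0.61 ± 0.29. Pmvk, the phosphomevalonate kinase, was at 0.47 ± 0.51 and the isomerase Ebp at 0.19 ± 0.12. Over the 18 enzymes the median was -0.58, against 0.03 over all tested genes. 

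Of the regulators, Insig1 (chr5:28071363-28078662, plus strand) had 60.1, 78.1, 78.2 and 170.5 CPM in oxaliplatin mice, against 334, 273 and 313 CPM in vehicle mice. Its oxaliplatin mice all lay below its vehicle mice, mouse 5 being the highest of them, and the log2 fold change was -1.66 ± 0.35 (edgeR adjusted p = 0.111). Insig2 was also apart, at -0.66 ± 0.16. Srebf2 had 76.7, 70.7, 74.0 and 80.1 CPM in oxaliplatin mice, against 73.6, 105 and 81.8 CPM in vehicle mice, and its arms overlapped at a log2 fold change of -0.20 ± 0.14. Scap was at 0.05 ± 0.12.

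On the efflux and transport side, 6 of 7 genes had changes above 0, as had 52.4% of all tested genes, with a median of 0.63. Gramd1b had the smallest p of all members in fat, at 112, 95.0, 87.1 and 87.4 CPM in oxaliplatin mice, against 39.7, 38.7 and 31.4 CPM in vehicle mice. The arms were far apart and mouse 5 lay with the other oxaliplatin mice, so that the means were 95.5 ± 11.8 CPM in oxaliplatin mice and 36.6 ± 4.55 CPM in vehicle mice. Its log2 fold change was 1.38 ± 0.15, with an edgeR adjusted p of 0.0751. The pump Abcg1 (chr17:31057675-31117988, plus strand) had 244, 185, 107 and 73.1 CPM in oxaliplatin mice, against 58.3, 54.8 and 43.3 CPM in vehicle mice. Abca1 (chr4:53030787-53159895, minus strand) had 1141, 1086, 831 and 691 CPM in oxaliplatin mice, against 621, 575 and 619 CPM in vehicle mice. Both had a larger value in each oxaliplatin mouse than in any vehicle mouse, with mouse 5 lowest, at log2 fold changes of 1.55 ± 0.41 and 0.63 ± 0.22 (edgeR adjusted p = 0.118 and 0.142). Gramd1a had 311, 178, 155 and 80.1 CPM in oxaliplatin mice, against 90.3, 63.7 and 83.7 CPM in vehicle mice, where mouse 5 lay within the vehicle range. Stard4, which is itself a known SREBP2 target, went with the enzymes at -0.46 ± 0.19. The receptors Nr1h2 and Nr1h3 were at 0.09 ± 0.12 and 0.11 ± 0.12 and overlapped.

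**Figure D2:**
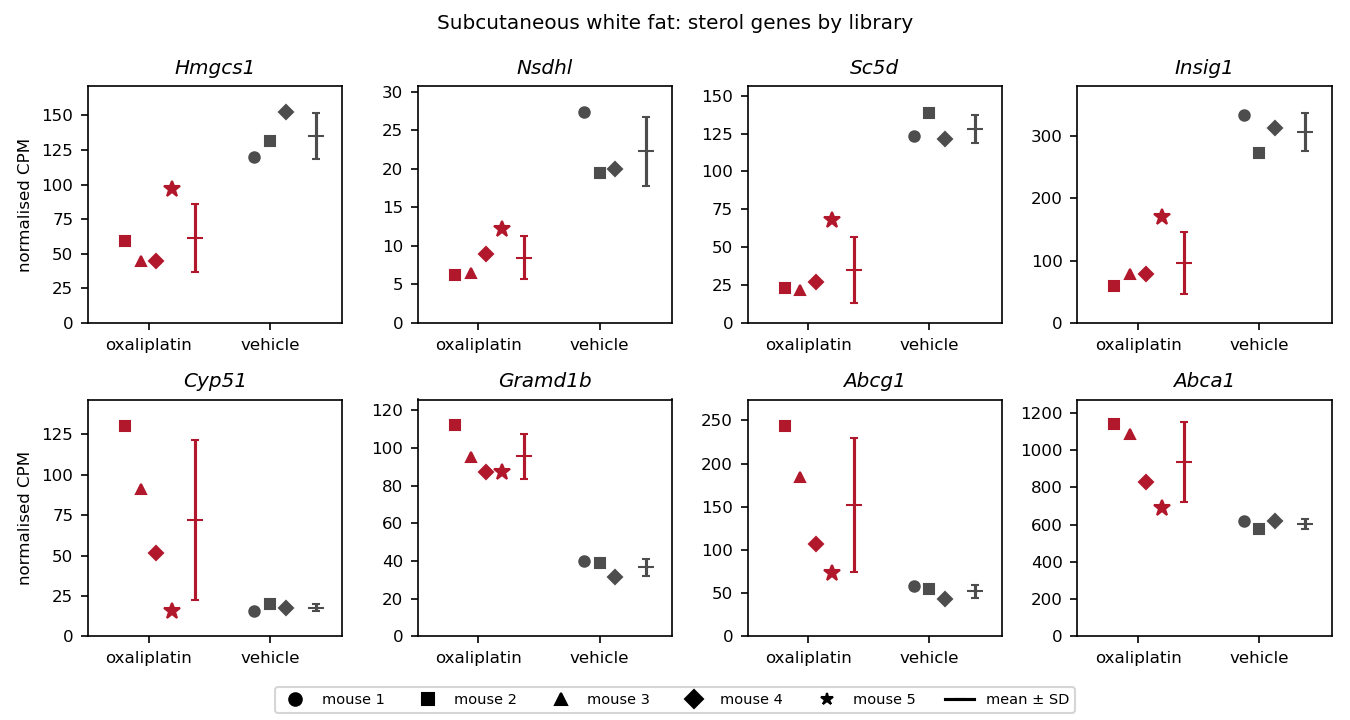
Normalised CPM (vertical axis, from 0) of 8 sterol genes in each fat library, oxaliplatin left and vehicle right, 1 symbol per mouse number, with bars for the mean ± SD. Oxaliplatin mouse 5 (star) is the highest oxaliplatin mouse for Hmgcs1, Nsdhl, Sc5d and Insig1 and the lowest for Cyp51, Abcg1 and Abca1, while for Gramd1b it lies at 87.4 CPM with mouse 4.

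Without the library of oxaliplatin mouse 5, edgeR called 25.5% of all tested fat genes, 13.5% as lower and 12% as higher. It then called 16 of the 29 sterol genes, 10 lower and 6 higher. Leaving out any other fat library called none of them. Mouse 5 was the oxaliplatin mouse nearest to vehicle for Sc5d, Insig1, Nsdhl, Hmgcs1, Mvk, Cyp51, Abcg1, Gramd1a and Abca1. Leaving it out therefore parts the arms further by the same values, and these calls are no independent support. The genes called lower in that setting were Sc5d (-2.41 ± 0.13, adjusted p = 0.0002), Insig1 (-2.09 ± 0.16, adjusted p = 0.000513), Nsdhl, Hmgcs1, Idi1, Fdps, Hsd17b7, Mvk, Insig2 and Stard4, that is, 7 enzymes, both Insig genes and 1 carrier. The genes called higher were Cyp51 (2.34 ± 0.33, adjusted p = 0.00461), Abcg1 (1.77 ± 0.30, adjusted p = 0.00762), Gramd1a, Gramd1b, Fdft1 and Abca1, that is, 4 efflux and transport genes and 2 enzymes. The smallest change in size among the 16 was that of Stard4, at -0.60 ± 0.17.

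Cell type markers also varied between these libraries. The adipocyte markers summed to 3807, 3545, 3979.9 and 9047 CPM in oxaliplatin mice 2 to 5, against 12448, 9065 and 8953 CPM in vehicle mice 1, 2 and 4, and 6 of 6 had a change below 0. The fibroblast markers summed to 633, 1068, 907 and 9220.3 CPM in oxaliplatin mice, against 4946, 6675 and 6013 CPM in vehicle mice, and 5 of 6 had a change below 0. Oxaliplatin mouse 5 lay within the vehicle range for the adipocyte sum and above it for the fibroblast sum, and also had the highest lymphocyte sum. The 6 lymphocyte markers summed to 4.76, 25.0, 30.3 and 107 CPM in oxaliplatin mice, against 5.07, 8.03 and 3.52 CPM in vehicle mice, and 6 of 6 had a change above 0. Of all tested genes, 47.6% lay below 0 and 52.4% above. None of these markers was called. An unadjusted p under 0.05 was found for 1 adipocyte marker (lower), 0 fibroblast markers and 4 lymphocyte markers (higher), against 12.7% lower and 13.4% higher of all genes. The 6 astrocyte markers, from a brain cell type, summed to 1476, 1032, 769.5 and 580.0 CPM in oxaliplatin mice, against 559, 478 and 494 CPM in vehicle mice, with no overlap. Only 4 of them passed the filter on low counts. Of these, 3 had a change above 0, 2 had an unadjusted p under 0.05 and none was called. Without vehicle mouse 4, the library with the high myofibre markers, 13 of 18 enzymes had a change below 0 (44.9% of all genes) and 14 of the 29 genes an unadjusted p under 0.05 (17.6% of all genes), with a median of -0.48 for the enzymes and 0.67 for the efflux and transport genes. The part of all these markers in the sterol values was not tested.

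In hypothalamus, 17 of the 18 synthesis enzymes had a log2 change below 0, as had 48% of all tested genes. Of the 7 efflux and transport genes, 5 were also below 0, with a median of -0.09 against -0.33 for the enzymes. No member passed the adjusted threshold in edgeR, which called 0.148% of the 18941 genes tested, all higher. Of the 29, 11 had an unadjusted p under 0.05, all lower in oxaliplatin mice (10 enzymes and Srebf2), against 4% of all tested genes in that direction and 10.2% in both. None was higher, against 6.2% of all genes. The count of 11 depended on single libraries. It ran from 3 without vehicle mouse 2 (6.08% of all genes) to 16 without oxaliplatin mouse 5 (19.5%). The arms did not overlap for 5 of the 29, all lower, against 9.93% of all genes, 4.35% lower and 5.58% higher. These were 2 enzymes of the mevalonate and isoprenoid steps, 2 of the steps from lanosterol to cholesterol and 1 gene of the SREBP2 system. DESeq2 called 1 of the 29, Dhcr7 (1.04% of all genes), and limma-voom none.

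Dhcr7 (chr7:143823145-143848410, plus strand) had 22.9, 23.1, 25.4 and 31.3 CPM in oxaliplatin mice 2 to 5, against 33.9, 38.2 and 36.7 CPM in vehicle mice 1, 2 and 4. The arms were apart, mouse 5 being the highest oxaliplatin mouse, and the means were 25.7 ± 3.91 CPM in oxaliplatin mice and 36.2 ± 2.21 CPM in vehicle mice (SD, n = 4 and 3). The log2 fold change was -0.50 ± 0.12, with an adjusted p of 0.262 in edgeR and 0.0483 in DESeq2. Nsdhl was also apart, at 12.7, 13.8, 16.6 and 19.8 CPM in oxaliplatin mice, against 21.4, 22.8 and 20.2 CPM in vehicle mice, with a log2 fold change of -0.45 ± 0.15 (edgeR adjusted p = 0.388).

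For most of the other enzymes oxaliplatin mice 2 to 4 were low and mouse 5 was not. Hmgcs1 (chr13:119690379-119708260, plus strand) had 122, 143, 146 and 222 CPM in oxaliplatin mice, against 230.0, 218 and 228 CPM in vehicle mice. Sc5d had 39.7, 47.0, 43.1 and 66.9 CPM in oxaliplatin mice, against 72.1, 65.7 and 68.8 CPM in vehicle mice. In both genes mouse 5 lay inside the vehicle range, and the log2 fold changes were -0.51 ± 0.18 and -0.49 ± 0.16. Mvd had 9.62, 9.42, 10.8 and 15.6 CPM in oxaliplatin mice, against 15.4, 17.2 and 15.8 CPM in vehicle mice. Sqle had 39.8, 47.5, 59.3 and 74.5 CPM in oxaliplatin mice, against 70.2, 76.8 and 76.1 CPM in vehicle mice. Again mouse 5 alone reached the vehicle range, at log2 fold changes of -0.51 ± 0.18 and -0.43 ± 0.19. Acat2 had 29.8, 34.8, 36.0 and 40.5 CPM in oxaliplatin mice, against 41.4, 42.0 and 42.0 CPM in vehicle mice, with arms just apart at -0.24 ± 0.11. Acat3, which can share reads with Acat2, averaged 1.39 ± 0.828 CPM in oxaliplatin mice and 3.05 ± 0.452 CPM in vehicle mice, at -1.13 ± 0.38. The remaining enzymes ran from -0.52 for Idi1 to 0.00 for Pmvk, the only enzyme not below 0. The median over the 18 was -0.33, against 0.01 over all tested genes.

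Srebf2, the source of SREBP2, had 207, 221, 264 and 322 CPM in oxaliplatin mice, against 296, 349 and 332 CPM in vehicle mice. Mouse 5 lay within the vehicle range and the other oxaliplatin mice below it, at a log2 fold change of -0.36 ± 0.15 (edgeR adjusted p = 0.461). Insig1 had 74.9, 99.9, 105 and 109 CPM in oxaliplatin mice, against 125, 111 and 108 CPM in vehicle mice, overlapping at -0.24 ± 0.13. Scap and Insig2 were at -0.02 ± 0.08 and -0.12 ± 0.08.

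The efflux and transport genes of the hypothalamus had a median log2 fold change of -0.09, and 2 of 7, the efflux pumps, were above 0, as were 52% of all tested genes. Abca1 had 97.4, 115, 87.0 and 92.5 CPM in oxaliplatin mice, against 83.2, 89.3 and 90.7 CPM in vehicle mice. Abcg1 had 135, 129.7, 143 and 115 CPM in oxaliplatin mice, against 109.8, 130.4 and 122 CPM in vehicle mice. Their arms overlapped, at 0.16 ± 0.11 and 0.11 ± 0.10. Gramd1b had 151, 94.3, 116 and 127 CPM in oxaliplatin mice, against 132, 119 and 122 CPM in vehicle mice, where oxaliplatin mice held both the highest and the lowest value and the log2 fold change was -0.03 ± 0.14. Stard4 was at -0.34 ± 0.19, and Gramd1a, Nr1h2 and Nr1h3 lay between -0.19 and -0.09.

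**Figure D3:**
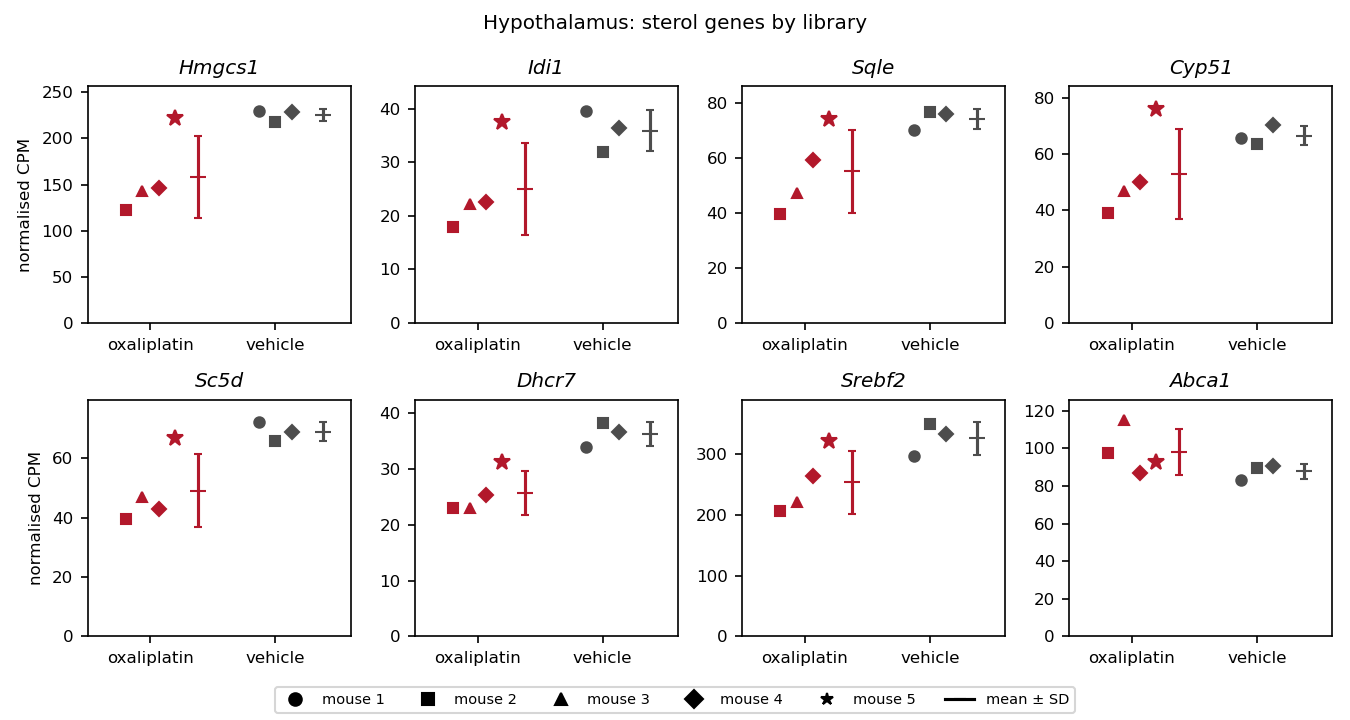
Normalised CPM (vertical axis, from 0) of 8 sterol genes in each hypothalamus library, oxaliplatin left and vehicle right, 1 symbol per mouse number, with bars for the mean ± SD. Oxaliplatin mice 2 to 4 lie below the vehicle mice for Hmgcs1, Idi1, Sqle, Cyp51, Sc5d, Dhcr7 and Srebf2, and oxaliplatin mouse 5 (star) lies within or near the vehicle values.

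Without oxaliplatin mouse 5, edgeR called 3.49% of all tested hypothalamus genes, 1.36% as lower and 2.12% as higher. It then called 9 of the 29 sterol genes, all of them synthesis enzymes and all lower. They were Hmgcs1 (-0.73 ± 0.09, adjusted p = 0.00712), Sc5d (-0.68 ± 0.09, adjusted p = 0.00918), Dhcr7 (-0.62 ± 0.09, adjusted p = 0.0129), Idi1, Mvd, Msmo1, Cyp51, Nsdhl and Fdft1, the last with the smallest change in size, at -0.43 ± 0.09. Srebf2 was at -0.51 ± 0.11, with an adjusted p of 0.0503. Leaving out any other hypothalamus library called no member. Mouse 5 was the oxaliplatin mouse nearest to vehicle for Hmgcs1, Sc5d, Dhcr7, Mvd and Nsdhl. Leaving it out therefore parts the arms further by the same values, and these calls are no independent support. The 6 oligodendrocyte markers, from the cells that make myelin and much of the brain's cholesterol, summed to 2191, 4579.6, 4277 and 4843 CPM in oxaliplatin mice 2 to 5, against 5286, 5093 and 4388 CPM in vehicle mice 1, 2 and 4, with mouse 2 lowest. Leaving out mouse 2 gave 17 of 18 enzymes a change below 0 (50.3% of all genes), and the median was -0.25. An unadjusted p under 0.05 was then found for 7 of the 29 genes (9.28% of all genes), against 11 with all libraries. The 6 endothelial markers summed to 245, 249, 220.3 and 151 CPM in oxaliplatin and 89.4, 102 and 97.5 CPM in vehicle mice, with 6 of 6 above 0 (52% of all tested genes) and 1 called (0.148%). The part of the oligodendrocyte and endothelial markers in the sterol values was not tested.

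**Figure D4:**
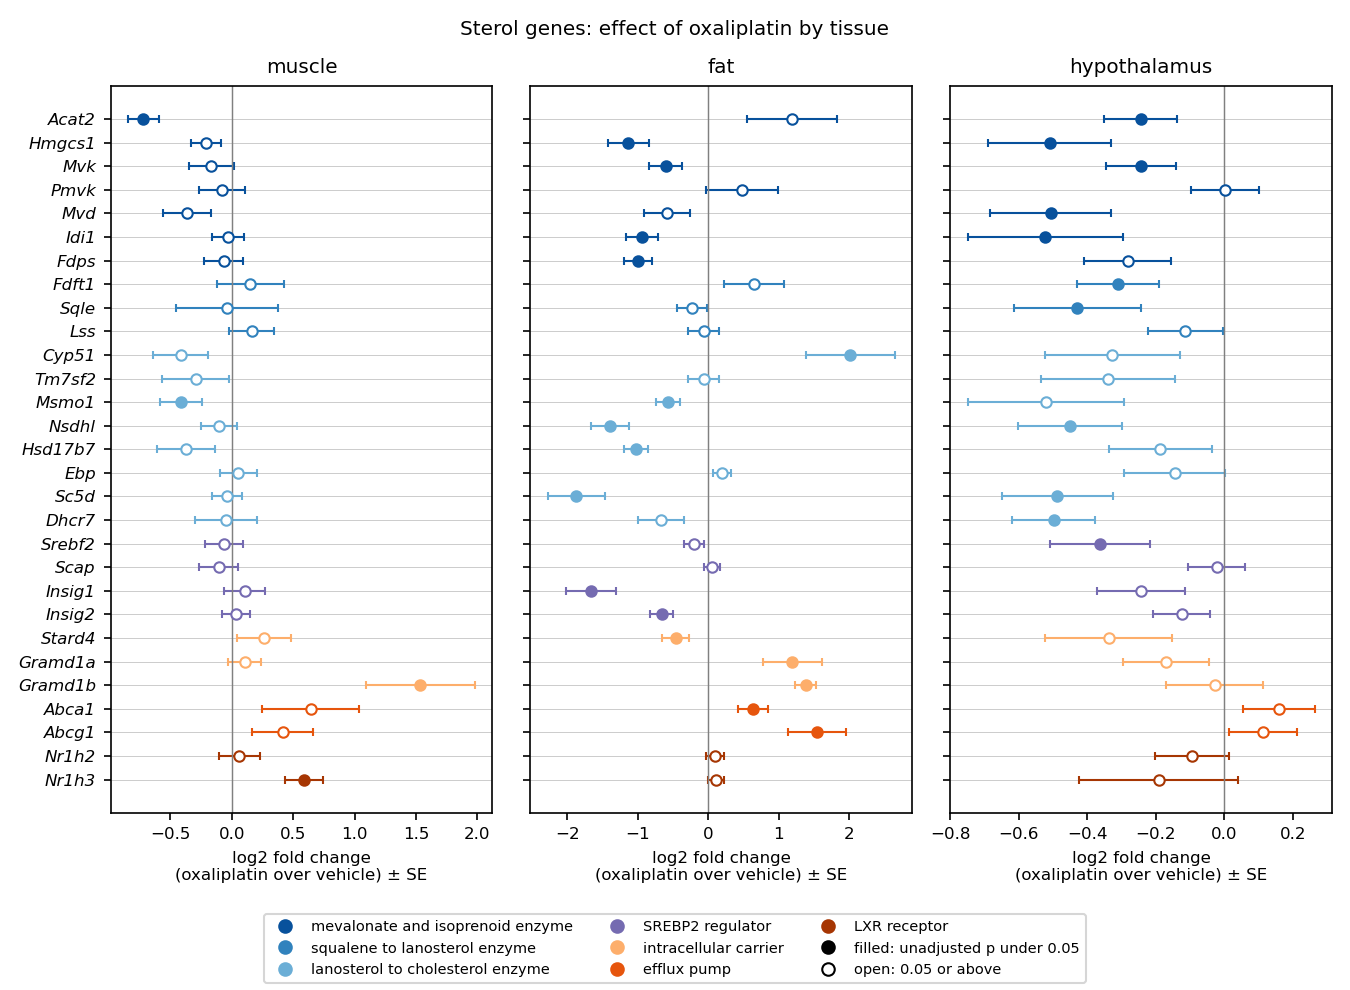
Log2 fold change of oxaliplatin over vehicle (horizontal axis, with a different range per panel) ± SE from edgeR for the 29 genes in muscle, fat and hypothalamus, coloured by role and filled where the unadjusted p was under 0.05. The enzymes at the top lie left of 0 for 15, 13 and 17 of 18 genes in the 3 panels, and the efflux and transport genes at the bottom lie right of 0 for 7, 6 and 2 of 7.

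The balance of both sides was followed in each library as the mean log2 CPM of the 18 enzymes minus that of the 7 efflux and transport genes, set to 0 at the vehicle mean. In fat it was -1.08, -1.18, -0.90 and -0.79 in oxaliplatin mice 2 to 5, against 0.01, 0.02 and -0.03 in vehicle mice 1, 2 and 4. In muscle it was -1.09, -0.15, -0.36, -0.54 and -1.01 in oxaliplatin mice 1 to 5, against -0.06, -0.12, 0.28 and -0.11 in vehicle mice 1 to 4. In hypothalamus it was -0.49, -0.40, -0.16 and -0.04 in oxaliplatin mice 2 to 5, against -0.02, -0.03 and 0.06 in vehicle mice 1, 2 and 4. By title, the balance was lower in all oxaliplatin libraries than in all vehicle libraries of the same tissue, but the gap was narrow outside fat. In hypothalamus it lay between -0.04 in oxaliplatin mouse 5 and -0.03 in vehicle mouse 2. In muscle it lay between -0.15 in oxaliplatin mouse 2 and -0.12 in vehicle mouse 2. Both gaps were smaller than the spread within the arms. In muscle the separation also rests on the titles. Mouse 5, which has a vehicle entry in its treatment label, lay below oxaliplatin mice 2, 3 and 4, so the arms would overlap if it were counted as vehicle. No test was made of this balance, since the genes were chosen with results known, and no other gene lists were set beside it. The sides contributed unequally. In muscle the efflux and transport level was 0.73, 0.15, 0.26, 0.38 and 0.81 and the synthesis level -0.35, 0.00, -0.10, -0.16 and -0.20 in oxaliplatin mice 1 to 5. In hypothalamus the efflux and transport level was -0.09, -0.08, -0.15 and -0.02 and the synthesis level -0.59, -0.48, -0.30 and -0.06 in oxaliplatin mice 2 to 5. In fat the efflux and transport level was 0.91, 0.76, 0.41 and 0.29 and the synthesis level -0.17, -0.42, -0.50 and -0.50 in oxaliplatin mice 2 to 5. The efflux and transport levels of vehicle mice were -0.14 to 0.11 in muscle, -0.05 to 0.08 in fat and -0.05 to 0.03 in hypothalamus, and their synthesis levels -0.11 to 0.15, -0.08 to 0.10 and -0.01 to 0.01.

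**Figure D5:**
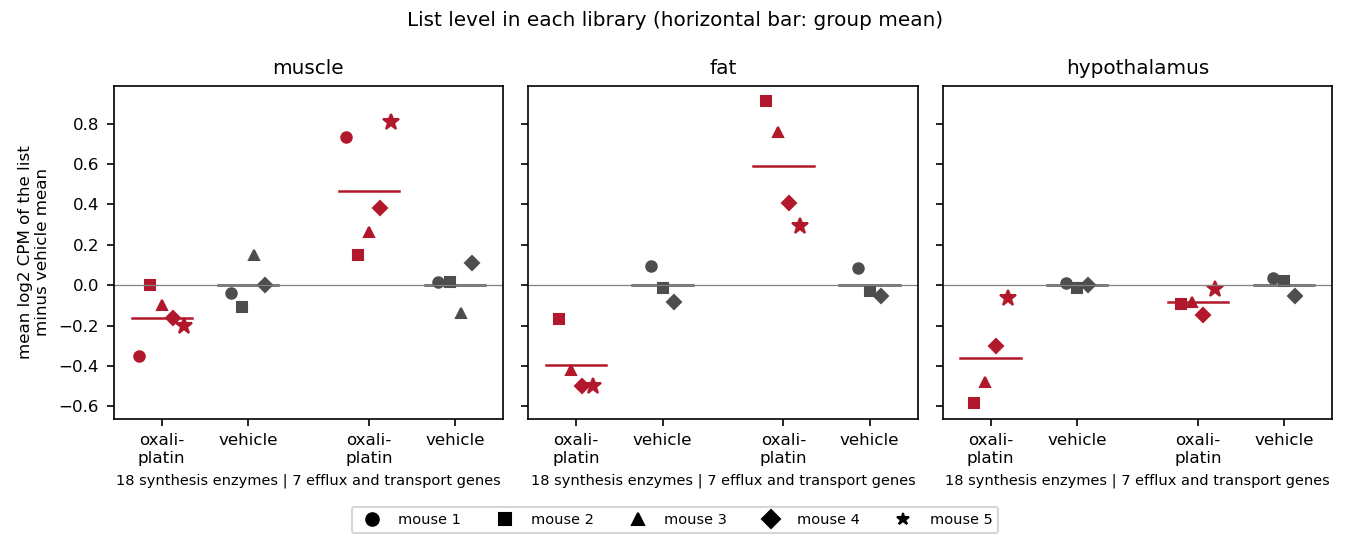
Mean log2 CPM of the 18 synthesis enzymes and of the 7 efflux and transport genes in each library minus the vehicle mean (vertical axis), oxaliplatin left of vehicle in each pair, with a horizontal bar at the group mean. Efflux and transport levels of oxaliplatin mice lie at 0.15 to 0.81 in muscle and 0.29 to 0.91 in fat, and synthesis levels at -0.59 to -0.06 in hypothalamus.

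Differences in the oxaliplatin effect between tissues were tested in a joint edgeR fit for each pair of tissues. Between fat and hypothalamus, 1 of the 29 genes passed, against 0.311% of the 20892 genes tested. It was Gramd1b, whose effect in fat minus that in hypothalamus was 1.41 ± 0.22 on the log2 scale (adjusted p = 0.021). The call was lost on leaving out fat oxaliplatin mouse 3, hypothalamus oxaliplatin mouse 4 or any 1 of the hypothalamus vehicle mice, with adjusted p values of 0.0506 to 0.0817. An unadjusted p under 0.05 was found for 10 members in this difference, against 19.7% of all genes. Between fat and muscle no member passed, while 0.239% of 18862 genes were called and 12 members had an unadjusted p under 0.05, against 17% of all genes. The closest were Sc5d at -1.81 ± 0.39 (edgeR adjusted p = 0.0594) and Insig1 at -1.75 ± 0.38 (edgeR adjusted p = 0.0617). Between muscle and hypothalamus none passed either, while 0.0689% of 17415 genes were called and 5 members had an unadjusted p under 0.05, against 9.33% of all genes. In limma-voom with the animal as a block, the other model run on these differences, the counts of members called were again 1, 0 and 0.

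Leaving out fat oxaliplatin mouse 5 called 10 members between fat and muscle (8.64% of all genes) and 14 between fat and hypothalamus (15.2%). Sc5d then differed by -2.37 ± 0.19 and Insig1 by -2.19 ± 0.25 between fat and muscle (edgeR adjusted p = 2.8e-06 and 8.27e-05). Cyp51, higher in fat and below 0 in the other tissues, differed by 2.77 ± 0.39 from muscle and 2.66 ± 0.40 from hypothalamus (edgeR adjusted p = 0.000527 and 0.00105). In fat, mouse 5 was the oxaliplatin mouse nearest to vehicle for Sc5d, Insig1 and Cyp51, so these calls too rest on leaving out that library. Leaving out fat vehicle mouse 2 called Insig1, Nsdhl and Sc5d between fat and muscle (1.34% of all genes). Muscle libraries were made with another kit than those of fat and hypothalamus, so kit and tissue cannot be told apart in the comparisons with muscle.

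Of 28 other genes of sterol handling listed for the study, 24 were tested in muscle and 28 in each other tissue, and edgeR called none in any tissue. Unadjusted p values under 0.05 were found for 4 higher and 2 lower in muscle, 5 higher and 7 lower in fat, and 1 higher and 3 lower in hypothalamus. Of all tested genes, 4.8% were higher and 4.79% lower by that rule in muscle, 13.4% and 12.7% in fat, and 6.2% and 4% in hypothalamus. DESeq2 called 1, 6 and 2 of them in muscle, fat and hypothalamus (among 1.2%, 9.03% and 1.04% of all genes it tested), and limma-voom none. In muscle the smallest p belonged to the lipoprotein receptor Vldlr, with 168 ± 26.6 CPM in oxaliplatin mice and 238 ± 16.6 CPM in vehicle mice (log2 fold change -0.50 ± 0.13, edgeR adjusted p = 0.205). Rnf139, a ubiquitin ligase of the endoplasmic reticulum, followed at -0.44 ± 0.12, and Srebf1, which encodes the related factor SREBP1, at 0.51 ± 0.19.

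In fat, Soat1, which esterifies cholesterol for storage, averaged 33.0 ± 3.91 CPM in oxaliplatin mice and 17.0 ± 4.13 CPM in vehicle mice, at a log2 fold change of 0.96 ± 0.19 (edgeR adjusted p = 0.0984). Acss2, which makes acetyl-CoA from acetate, averaged 54.6 ± 12.4 CPM in oxaliplatin mice and 151 ± 73.8 CPM in vehicle mice (-1.46 ± 0.32), and the sterol-binding protein gene Stard5 averaged 47.6 ± 21.0 CPM in oxaliplatin mice and 17.9 ± 1.91 CPM in vehicle mice (1.41 ± 0.37). All 3, chosen here for their small p, were apart between the arms, as were 21.5% of all tested genes. In hypothalamus, Ch25h, which makes an oxysterol from cholesterol, averaged 2.37 ± 1.10 CPM in oxaliplatin mice and 0.382 ± 0.120 CPM in vehicle mice, a low level that rests on few counts, at 2.62 ± 0.47 (edgeR adjusted p = 0.098). Acss2 averaged 27.9 ± 3.39 CPM in oxaliplatin mice and 40.3 ± 1.44 CPM in vehicle mice there (-0.53 ± 0.11, edgeR adjusted p = 0.155), and Abcg4, a sterol transporter of the brain, was at -0.29 ± 0.10. Acss2 was apart and lower in oxaliplatin mice in both fat and hypothalamus, as were 11.2% and 4.35% of all tested genes in each.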

How the data were processed

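The values deposited by the authors for 9 muscle, 7 fat and 7 hypothalamus libraries are expected counts, estimates of the reads of each gene that were left unscaled. Per the submitters' processing notes, STAR 2.5.1a, Partek and DESeq2 were used, with no role stated. Per the labels' protocols, the Clontech SMARTer kit served for muscle libraries and a RiboErase kit for the others. No genome build is named in those sources, and gene starts equalled those of GENCODE M21 (GRCm38) for 99.4% to 99.5% of shared identifiers, so loci are given on that build. Values were not whole for 41.1% to 48.7% of entries (tolerance 1e-09), so the expected counts were rounded, although whole counts had been planned for. Every row summed to at least 10, which removes the lowest genes.

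Each tissue was fitted alone on its whole table with edgeR 4.0.16 in R 4.3.3 (filterByExpr with a minimum count of 10 and total of 15, TMM factors, robust quasi-likelihood F test, Benjamini-Hochberg threshold 0.05). The SE is the size of the log2 fold change divided by the square root of F. The code was tested on simulated data. DESeq2 1.42.0 and limma-voom 3.58.1 were alternatives, with other scalings and filters, each library left out in turn, a block for the mouse number, and muscle mouse 5 as vehicle. Shares called by DESeq2 are over all genes given a p value, including any that its own filter left without an adjusted p, so they may be understated. List levels are mean log2 CPM with a prior count of 2.

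Groups follow the titles. Mouse numbers of the arms name different animals. Counts of libraries of a group differed by a chi-square of at least 6.75 per degree of freedom in all 34 pairs, so none was a repeat. Nothing but the mouse number says how replicates were raised, so p values measure the spread between these libraries. The members and lists were chosen with earlier results of these data known. Values per library were planned for each member called, for the 5 of smallest p in each tissue, and for Srebf2, Insig1, Sqle, Abca1, Abcg1 and Gramd1b. Those of Sc5d, Hmgcs1, Cyp51, Acat2 and Gramd1a in fat and Acat2 in hypothalamus, and the genes plotted, were chosen after their values were seen. Of the other sterol genes, the 3 of smallest p per tissue are named.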

Additional observations from a re-analysis of the deposited data

Results flagged for a closer look

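Single libraries far from the others of their group were looked for in 132 groups of 4 or 5 libraries, by the gap to the nearest library over the whole range, and 11 were found. Chance gives about 1 in 20 groups. In fat, oxaliplatin mouse 5 was set apart for Sc5d (67.7 CPM), Insig1 (170.5 CPM) and Mvk (19.6 CPM), each above the other 3 oxaliplatin mice, and oxaliplatin mouse 2 for Sqle (15.8 CPM). In muscle, oxaliplatin mouse 3 was high for Mvk (4.85 CPM) and oxaliplatin mouse 4 for Mvd (4.45 CPM). Vehicle mouse 3 of muscle was high for Mvd (6.92 CPM), low for Stard4 (1.47 CPM) and high for the synthesis level minus the efflux and transport level (0.28 on the log2 scale). Vehicle mouse 1 of muscle was high for Insig2 (81.9 CPM) and vehicle mouse 4 low for Nr1h2 (22.4 CPM).

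The oxaliplatin effect on Gramd1b differed between tissues by test, being 1.41 larger on the log2 scale in fat than in hypothalamus (joint edgeR fit, adjusted p = 0.021). As given above, the call was lost on leaving out any 1 of several single libraries. In fat alone the change of Gramd1b did not pass (edgeR adjusted p = 0.0751).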

How the results depend on the processing

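Of the values of single genes under each alternative, 573 kept their direction and their side of the threshold, 18 lost a call, 29 gained one and 14 changed sign, the cause being not tested. Muscle genes called were 24, against 248 in DESeq2, 13 in limma-voom, 42 without a filter, 3 with a block for the mouse number, 0 with mouse 5 as vehicle, and 2 to 17 with 1 library left out. Muscle members called were 1, against 2 in DESeq2 and 0 with upper quartile factors, limma-voom, the block, mouse 5 as vehicle or any library left out. With mouse 5 as vehicle, the median of the muscle efflux and transport genes was 0.053, Srebf2 was at 0.025 and Abca1 at -0.047. In fat, genes called were 0, 2377 in DESeq2 and 0 to 4969 with 1 library left out, and members called were 0, 14 and 0 to 16. In hypothalamus, genes called were 28, 266 in DESeq2, 11 in limma-voom and 0 to 655 with 1 library left out, and members called were 0, 1 in DESeq2 and 0 to 9 with 1 left out, while the median of the efflux and transport genes ran from -0.15 to -0.042 with 1 left out and was -0.00067 with the block. Differences between tissues called 45, 65 and 12 genes for fat minus muscle, fat minus hypothalamus and muscle minus hypothalamus, 14 and 264 in the first and second with the animal as a block, and 14 to 1626, 3 to 3151 and 2 to 110 with 1 library left out, with 0 to 10, 0 to 14 and 0 to 0 members. Muscle Sqle changed sign in limma-voom (0.025), with the block (0.0084) and with 1 library left out (-0.27 to 0.30), as did Srebf2 (-0.17 to 0.0096) and Insig1 (-0.0078 to 0.20) with 1 left out, and hypothalamus Gramd1b with the block (0.13) and with 1 left out (-0.15 to 0.065). Same-numbered mice of the arms are different animals, and their deviations correlated at -0.28 to 0.17, so the block is no pairing. Beyond the results named here, it ended only the call of Acat2 in muscle (-0.79, edgeR adjusted p = 0.189). Depth limits the lowest members most, such as Sqle in muscle.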
